A study of Bos taurus with 6 samples.

Results

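RAB GTPases are the small GTP-binding proteins that mark the membranes of vesicles and organelles. The members described here were all probe sets whose platform annotation gave a single gene symbol made of RAB, 1 or 2 digits and at most one letter. This held for 48 probe sets of 39 genes, out of 24016 probe sets that were not controls. Of these, 44 probe sets of 36 genes were tested, among 18937 probe sets and 8189 named genes tested in all. The other 4 probe sets, both of RAB3A and those of RAB27B and RAB40B, had the same value at the floor of the scale on all 6 arrays. A further 3 probe sets that carried a RAB symbol beside another symbol were not members, and 7935 of the tested probe sets carried no single symbol, so a RAB gene among those would not be seen.

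The arrays were Affymetrix Bovine Genome Arrays, on which each probe set is a group of short oligonucleotides summarised as a single value. They measured 3 pools of bovine blastocysts and 3 pools of degenerative embryos, and the pools of each group carried the letters A, B and C. All embryos were made by in vitro fertilization, had compacted by day 5, and were graded on day 8, when the blastocysts showed both a blastocoele and a clear inner cell mass and the degenerative embryos had not become blastocysts. Each pool held 20 embryos, from several cows and bulls, so a value is an average over embryos of mixed parentage, and p-values measure the spread between pools. Amplification primed from the poly(A) tail was used, in 2 rounds according to the methods and in 1 round before labeling according to the labels. Values are expression levels on the log2 scale, from 2.12 to 16.12, and every difference is degenerative embryos minus blastocysts.

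A RAB protein switches between a GTP-bound form, which recruits motors, tethers and other effectors to a membrane, and a GDP-bound form. Exchange factors load GTP, GTPase-activating proteins speed its hydrolysis, and GDP dissociation inhibitors carry the inactive, prenylated protein through the cytosol. In the blastocyst the outer cells form an epithelium, and RAB proteins of the RAB11 and RAB8 groups are known in epithelia for carrying cargo to the apical surface. No protein or promoter sequences of these genes were used here.

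No RAB probe set was called by limma at an adjusted p of at most 0.15, in a series where 0.0158% of probe sets were called as lower and 0.00528% as higher (4 probe sets in all, and 0 with the pool letter as a block). SAM, the test of the methods, called none at a false discovery rate of 15%, against 0.333% of all probe sets called as lower and 0.0211% as higher. At 25%, SAM called 3 RAB probe sets as lower, or 6.82% of 44, where 4.3% of all probe sets were called, and 0 as higher, where 0.359% were called. These were probe sets of RAB8B, RAB25 and RAB6A. The same 3 were lower at an unadjusted limma p under 0.05, a share of 6.82% against 5.27% of all probe sets, and 1 probe set, of RAB7A, was higher at this level, a share of 2.27% against 3.34%. Blastocyst and degenerative pools did not overlap for 5 probe sets that were lower, 11.4% against 8.93%, and for 2 that were higher, 4.55% against 6.48%. The shares lie near those of the whole array and are no result about the RAB family. The 3 calls of SAM at 25% fell to 0 when any blastocyst pool or degenerative pool B was left out, and numbered 6 without degenerative pool A. Over all probe sets the 883 calls at 25% likewise fell to 0 or 1 in the same fits, and numbered 1841 without degenerative pool A.

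The median difference of the 36 RAB genes, with the probe set of the highest mean for each, was -0.05, and 18 genes were lower and 18 higher. Over all 8189 genes the median was 0.02. The genes ran from RAB25 at -1.71 to RAB40C at 0.80, and 7 of them had no group mean of at least 5, a level under which signals are dim. Over the 29 others the median was -0.20, with 17 lower and 12 higher, against 0.02 over 6278 genes of that level. This median was -0.01 without degenerative pool A and 0.03 without blastocyst pool C. Without any other single pool it lay between -0.25 and -0.11, and without both A pools it was -0.08. Its sign thus turned only without blastocyst pool C, and it was close to 0 without degenerative pool A. The 95% interval of limma lay inside -1 to 1 for 12 of the 29 genes, wholly under 0 for 3 and wholly over 0 for none, and the median interval reached 0.82 to either side. Thus a change within 2-fold was bounded in the chosen probe set of 12 genes, and for the other 17 the arrays did not exclude a larger difference. RAB6A and RAB27A, among the 12, had second probe sets with wider intervals, of -3.77 to 1.12 and -0.52 to 1.81. Of the 34 tested RAB probe sets with a group mean of at least 5, the sign of 15 turned in at least 1 of the 6 fits without a single pool, and of 10 without degenerative pool A. The latter fit keeps blastocyst pool A. Without both A pools, RAB11B, RAB22A, RAB30, RAB4B, RAB5C and RAB7B of those 10 kept their sign. RAB8B, RAB25 and RAB6A, in the probe sets called by SAM, were not among the 15. Their groups did not overlap, so leaving out 1 pool could not turn their sign, and this adds no support for them.

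**Figure D1:**
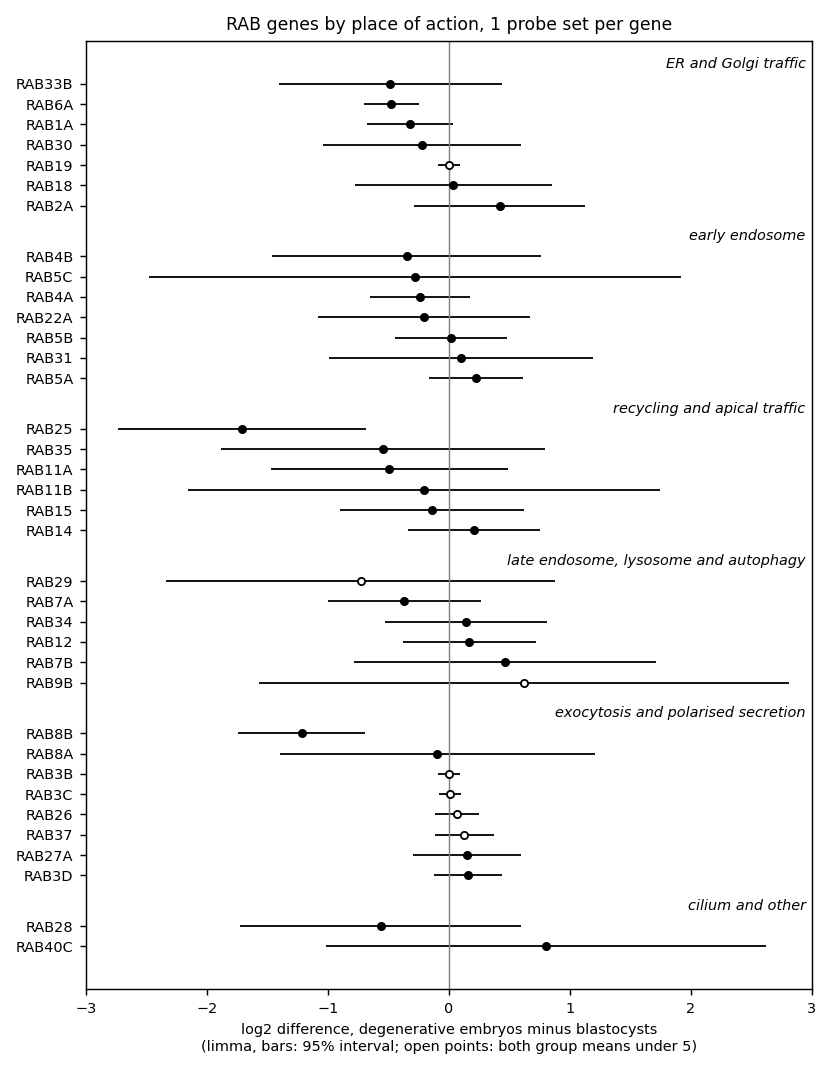
Difference between degenerative embryos and blastocysts on the log2 scale (horizontal axis) for the 36 tested RAB genes, grouped by place of action (vertical axis), with 1 probe set per gene. Points are differences of the means of 3 pools, bars are 95% intervals of limma, and open points have both group means under 5. The bars of RAB6A, RAB25 and RAB8B lie wholly under 0.

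The RAB proteins of exocytosis and polarised secretion carry vesicles to the plasma membrane. RAB8B, which acts in traffic to the plasma membrane and in the growth of cilia and protrusions, was at 10.59, 10.36 and 10.46 in blastocyst pools A, B and C and at 8.91, 9.23 and 9.62 in the degenerative pools. All 3 degenerative pools thus lay below all 3 blastocyst pools, by at least 0.74. The log2 difference was -1.22 (standard error 0.20, 95% interval -1.74 to -0.69), a level 2.33-fold lower. It had an adjusted p of 0.391 from limma and a SAM permutation p of 0.00166. A SAM permutation p, here and below, ranks a score among the relabeled scores of all tested probe sets together, not of its own probe set alone. The difference of RAB8B stayed between -1.40 and -0.99 over 13 other settings. A second probe set of RAB8B was at 7.19 in each blastocyst pool and at 7.76, 6.17 and 6.83 in the degenerative pools. There the groups overlapped, with a difference of -0.27 (standard error 0.43) that turned to 0.10 without degenerative pool B.

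RAB8A, the close relative of RAB8B, also had probe sets that differed from each other. In the one with the higher mean, blastocyst pools were at 8.17, 9.16 and 9.05 and degenerative pools at 7.83, 9.23 and 9.03, a difference of -0.10 (standard error 0.50). In the other, blastocyst pools were at 8.18, 8.59 and 8.53 and degenerative pools at 5.90, 7.75 and 7.99. These did not overlap, but the difference of -1.22 had a standard error of 0.62 (adjusted p = 0.638 from limma), and it was -0.69 without both A pools. Of the other genes in this group, RAB27A, which docks secretory granules, differed by 0.15 in its probe set with the higher mean and by 0.65 in the other, where degenerative pool A alone was at 9.45 and the other pools between 7.75 and 8.04. RAB3D, a RAB of secretory granules, differed by 0.16 (standard error 0.11). RAB3B, RAB3C, RAB26 and RAB37, known from regulated secretion, were under 2.6 on every array, and with RAB3A and RAB27B at the floor the arrays give no measure of a difference for these 6 genes. Of the 4 genes of the group with a group mean of at least 5, RAB8A and RAB8B were lower and RAB27A and RAB3D higher. The first RAB8A probe set turned to 0.34 and that of RAB27A to -0.02 without degenerative pool A.

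Among the RAB proteins of recycling and apical traffic, 5 of 6 genes were lower and 1 higher, with a median of -0.35. RAB25, a relative of RAB11 found mainly in epithelia, had the lowest difference of the family. It was at 8.76, 8.58 and 9.08 in blastocyst pools A, B and C and at 6.36, 7.21 and 7.73 in the degenerative pools. The groups did not overlap, and degenerative pool A was the farthest from the blastocysts. The log2 difference was -1.71 (standard error 0.39, 95% interval -2.74 to -0.68), or 3.27-fold lower, with an adjusted p of 0.479 from limma and a SAM permutation p of 0.00585. It was -1.34 when degenerative pool A was left out and -2.02 when degenerative pool C was, the ends of its range over 13 settings.

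RAB11A and RAB11B return cargo from recycling endosomes to the surface. Within each letter both were lower in the degenerative pool, as RAB25 was, but by far less for B and C. For A, B and C the differences were -2.40, -1.37 and -1.36 in RAB25. They were -1.36, -0.09 and -0.03 in RAB11A and -0.50, -0.04 and -0.07 in RAB11B. RAB11A was at 13.84, 13.71 and 13.78 in blastocysts and at 12.48, 13.62 and 13.74 in degenerative embryos, so that degenerative pool A stood apart. Its difference of -0.49 (standard error 0.37) was -0.06 without both A pools. RAB11B was at 6.86, 8.32 and 8.35 in blastocysts and at 6.36, 8.28 and 8.29 in degenerative embryos, where both A pools lay low and the groups overlapped. Its difference of -0.20 (standard error 0.75) was 0.44 without degenerative pool A and -0.05 without both A pools. RAB35, which acts in rapid recycling and in cytokinesis, was at 5.47, 6.76 and 6.62 in blastocysts and at 4.998, 6.11 and 6.11 in degenerative embryos. Within each letter the degenerative pool was lower, by -0.47, -0.65 and -0.51 for A, B and C. The unpaired difference of -0.54 had a standard error of 0.51, and with the pool letter as a block the standard error was 0.06 (adjusted p = 0.491 from limma). RAB14, which links Golgi and endosomes, differed by 0.21 (standard error 0.21) and RAB15 by -0.14 (standard error 0.29).

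**Figure D2:**
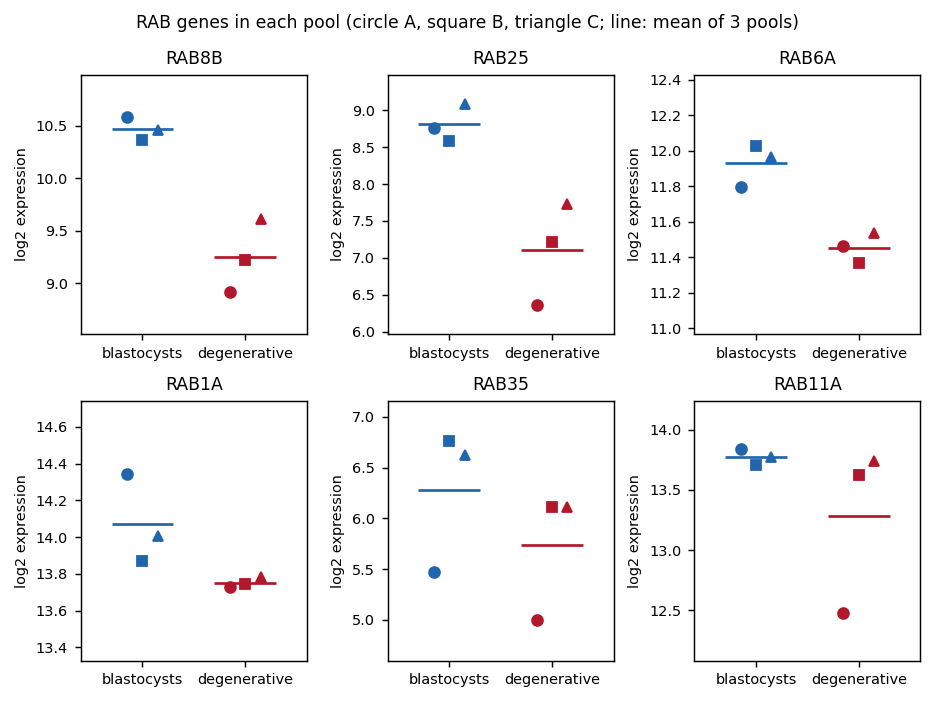
Expression on the log2 scale (vertical axis, a separate range for each gene) of 6 RAB genes in each pool of blastocysts (blue) and degenerative embryos (red), in the probe set with the highest mean. Markers give the pool letter and lines the mean of 3 pools. RAB8B, RAB25, RAB6A and RAB1A show no overlap between the groups. All 6 genes are lower in the degenerative pool within each letter, and RAB11A lies far below the blastocysts only in degenerative pool A.

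In traffic between the endoplasmic reticulum and the Golgi, 4 of the 6 genes with a group mean of at least 5 were lower and 2 higher, with a median of -0.27. RAB6A, which directs transport within and out of the Golgi, was at 11.79, 12.03 and 11.96 in blastocysts and at 11.46, 11.36 and 11.53 in degenerative embryos. The groups did not overlap and the pools of each lay close together. The difference of -0.47 (standard error 0.09, 95% interval -0.70 to -0.25), or 1.39-fold lower, had an adjusted p of 0.417 from limma and a SAM permutation p of 0.00185. A second RAB6A probe set gave -1.32 (standard error 0.93) because blastocyst pool A alone was at 9.49 and the other 5 pools between 5.86 and 6.54, and without that pool it gave -0.33.

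RAB1A, needed for transport from the endoplasmic reticulum to the Golgi, was at 14.34, 13.87 and 14.01 in blastocysts and at 13.73, 13.74 and 13.78 in degenerative embryos. These did not overlap either, with a difference of -0.32 (standard error 0.14) and an adjusted p of 0.603 by limma. It was -0.19 without blastocyst pool A, the highest of the 6. RAB2A, which acts between the same organelles, lay in the other direction at 0.42 (standard error 0.27), but at 0.15 without degenerative pool A. RAB33B, a Golgi RAB tied to autophagy, differed by -0.48 (standard error 0.35) and RAB30 by -0.22 (standard error 0.31). RAB18, of the endoplasmic reticulum and lipid droplets, differed by 0.04 (standard error 0.31). Without degenerative pool A, RAB30 and RAB18 were at 0.04 and -0.28, and without both A pools at -0.13 and -0.20. RAB19 was at the floor of the scale.

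The early endosome genes spanned the narrowest range, from -0.35 for RAB4B to 0.23 for RAB5A, with 4 lower, 3 higher, and none at an unadjusted limma p under 0.05. RAB5A, which drives fusion of early endosomes, was at 12.07, 12.18 and 12.05 in blastocysts and at 12.63, 12.21 and 12.15 in degenerative embryos, a difference of 0.23 (standard error 0.15) that was 0.06 without both A pools. Its relatives RAB5B and RAB5C differed by 0.02 (standard error 0.18) and -0.28 (standard error 0.84). Both signs turned when a pool was left out, for RAB5B to -0.11 without blastocyst pool A and for RAB5C to 0.30 without blastocyst pool C. RAB5C ranged from 6.86 in blastocyst pool A to 9.52 in blastocyst pool C, a wider spread within 1 group than the difference between group means of any RAB gene. RAB4A, of rapid recycling, differed by -0.24 (standard error 0.16), RAB4B by -0.35 (standard error 0.42), and RAB22A, of endosomal sorting, by -0.21 (standard error 0.33). The differences of RAB4B and RAB22A were 0.03 and 0.06 without degenerative pool A, and -0.11 and -0.08 without both A pools.

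Among the genes of late endosomes, lysosomes and autophagy, 1 of the 4 with a group mean of at least 5 was lower and 3 were higher, with a median of 0.16. RAB7A, which brings late endosomes to lysosomes, had probe sets that pointed in opposite directions. In the one with the higher mean, blastocyst pools were at 10.56, 10.65 and 10.79 and degenerative pools at 9.81, 10.43 and 10.65, a difference of -0.37 (standard error 0.24). In the other, blastocyst pools were at 8.46, 8.66 and 8.63 and degenerative pools at 9.58, 9.33 and 8.99. There all 3 degenerative pools lay above all 3 blastocyst pools, with a difference of 0.72 (standard error 0.17) and, from limma, an adjusted p of 0.479. It lay between 0.52 and 0.87 over 13 settings. Hence no direction can be given for RAB7A as a gene. RAB7B, another RAB of late endosomes, differed by 0.46 (standard error 0.48), by -0.01 without degenerative pool A and by 0.09 without both A pools. RAB12 and RAB34 differed by 0.17 (standard error 0.21) and 0.14 (standard error 0.26), and RAB29 and RAB9B were dim. Outside these groups, RAB28, known from photoreceptor cilia, differed by -0.56 (standard error 0.44). RAB40C, which joins a ubiquitin ligase, was at 6.74 in degenerative pool A and between 4.35 and 4.66 in the other 5 pools, and its difference of 0.80 was 0.05 without both A pools.

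**Figure D3:**
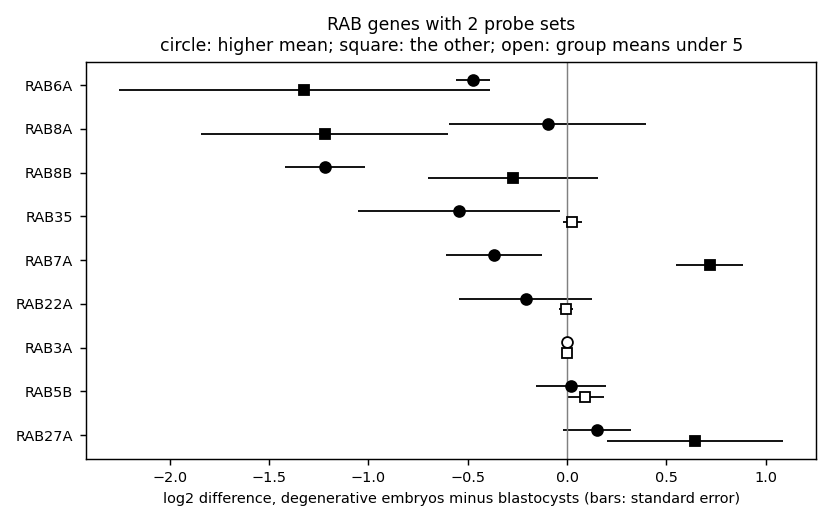
Difference on the log2 scale (horizontal axis) in both probe sets of the 9 RAB genes that had 2 (vertical axis). Circles are the probe set with the higher mean and squares the other, bars are standard errors, and open symbols have both group means under 5. The probe sets of RAB7A lie on opposite sides of 0, and those of RAB8A, RAB8B and RAB6A differ in size.

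Only 9 of the 39 genes had 2 probe sets, so for the other 30 such a disagreement could not be seen. Nor could it be judged for RAB3A, with both at the floor, or for RAB22A, RAB5B and RAB35, whose second probe sets were dim. That left RAB6A, RAB7A, RAB8A, RAB8B and RAB27A. The position of a probe set along its transcript was not used here. The 3′ to 5′ difference of the array's EIF4E control, a measure of how far the amplified RNA was shortened, was 6.60 to 8.59 in blastocyst pools and 9.13 to 9.87 in degenerative pools, and that of the actin control was 5.37 to 6.65 and 2.29 to 4.94. These controls thus separated the groups in opposite directions, while those of 3 other transcripts overlapped. Their part in the RAB differences was not tested.

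The A pools stood apart in the RAB genes of both groups. Among the 29 genes that were not dim, the pool farthest from the other pools of its group was A for 18 genes in blastocysts and for 17 in degenerative embryos, as for 3660 and 3885 of the 6278 genes of that level in all. Both A pools lay under both other pools of their group for 9 of the 29 genes, RAB5C, RAB11B, RAB8A and RAB35 among them, and above them for 4, against 1650 and 1454 of the 6278. The deviations of same-lettered pools from their group means, correlated across these 29 genes, had r = 0.60 for A, 0.33 for B and 0.53 for C, against 0.41, 0.18 and 0.31 across 6278 genes. These correlations are across genes, which share the arrays and are not independent replicates. The degenerative pools also varied more, with a larger SD than the blastocyst pools for 23 of the 29 genes (79.3%), as for 72.1% of all genes of that level. The median SD of the 29 genes was 0.24 in blastocysts and 0.49 in degenerative embryos. Within the letters, 10 of the 29 genes were lower in all 3 degenerative pools than in the blastocyst pool of the same letter and 2 were higher, against 1491 and 1374 of the 6278. The median differences were -0.33, -0.05 and -0.10 for A, B and C, and 0.13, 0.05 and -0.10 over the 6278 genes.

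**Figure D4:**
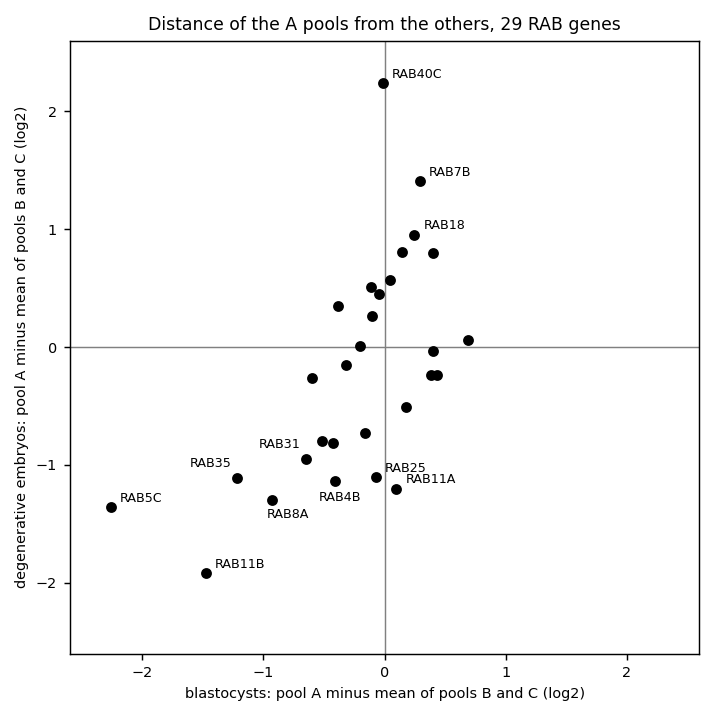
Distance of pool A from the mean of pools B and C on the log2 scale, in blastocysts (horizontal axis) and in degenerative embryos (vertical axis), for the 29 RAB genes with a group mean of at least 5. Each point is a gene. RAB5C, RAB11B, RAB8A and RAB35 lie at the lower left, low in both A pools, and RAB40C and RAB7B lie high in the degenerative A pool.

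The proteins that load, unload and carry RAB proteins were given by 3 lists. Of 16 genes listed under prenylation and GDP dissociation, 9 were measured, with 4 lower, 5 higher and a median of 0.11. Only RABGGTA and GDI2 among them belong to those processes themselves, and the others were RABAC1, ARL6IP5, PRAF2, YIPF1, YIPF2, YIPF3 and YIPF5. The median is therefore no reading of prenylation or GDP dissociation. YIPF5, a Golgi membrane protein that binds RAB proteins, was at 13.74, 13.51 and 13.54 in blastocysts and at 13.13, 13.01 and 13.28 in degenerative embryos, without overlap. SAM called it as lower at 25%, with a difference of -0.46 (standard error 0.10) and an adjusted p of 0.479 by limma, whereas the inhibitor GDI2 differed by 0.11 (standard error 0.16). Of 44 exchange factors, 23 were measured, with 13 lower, 10 higher and a median of -0.16. Against 5.65% and 4.68% of all genes, 1 exchange factor was lower and 1 higher (each 4.35%) at an unadjusted limma p under 0.05. These were RABGEF1, which activates RAB5, at -0.73 (standard error 0.28), and HPS4, of the exchange factor for RAB32 and RAB38, at 0.74 (standard error 0.25). Of 33 GTPase-activating proteins, 18 were measured, with 10 lower, 8 higher and a median of -0.01. TBC1D8 was the only one of them called by SAM at 25%, at -0.38 (standard error 0.09). Its group means, 5.22 in blastocysts and 4.84 in degenerative embryos, lay near the dim level of 5. Such lower calls by SAM made up 5.56% of the 18 genes and 11.1% of the 9 of the first list, against 4.73% of all genes.

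The effectors and tethers that RAB proteins recruit had a median of 0.16, with 18 of 39 measured genes lower and 21 higher, out of 70 listed. None was called by limma at the adjusted threshold, whereas 4 were lower and 4 higher at an unadjusted limma p under 0.05, each 10.3% of the 39, against 5.65% and 4.68% of all 8189 genes. SAM called 1 at 15%, or 2.56% against 0.391% of all genes, and 4 at 25%, or 10.3% against 4.73%, all as lower. VPS41, a subunit of the HOPS tether that works with RAB7 at lysosomes, was the one called at 15%. It was at 7.40, 7.43 and 7.39 in blastocysts and at 7.14, 7.11 and 7.11 in degenerative embryos, a small difference of -0.29 (standard error 0.04) between pools that lay very close together, with an adjusted p of 0.358 by limma. RILPL1, which binds RAB8 and related proteins, lay in the other direction at 1.08 (standard error 0.30). So did MICAL1 at 1.03 (standard error 0.305) and BICD2 at 0.29 (standard error 0.10), both also at an unadjusted limma p under 0.05. The exocyst, a tether at the plasma membrane, was mixed, with EXOC5 at -0.40 (standard error 0.11) and EXOC1 at -0.12 (standard error 0.04), both called at 25%, and EXOC8 at 0.83 (standard error 0.31). GOLGA4, a golgin, was also called at 25%, at -1.01 (standard error 0.33).

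Other families of small GTPases are given only for comparison. Their medians were -0.07 over 20 genes of the RAS, RAP, RAL and RHEB group and -0.09 over 12 ARF, ARL, SAR1 and RAN genes, against -0.05 over the RAB genes. At an unadjusted limma p under 0.05, 5 of 20 genes of the first group were lower (25%) and 2 higher (10%), none of the 12 of the ARF group passed, and 3 of 36 RAB genes were lower (8.33%) and 0 higher. Over all 8189 genes these shares were 5.65% lower and 4.68% higher. RAP1A, at -0.87 and called by SAM at 15%, is in the first list and was chosen by the study on these arrays. No test of a difference between the families was run.

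**Figure D5:**
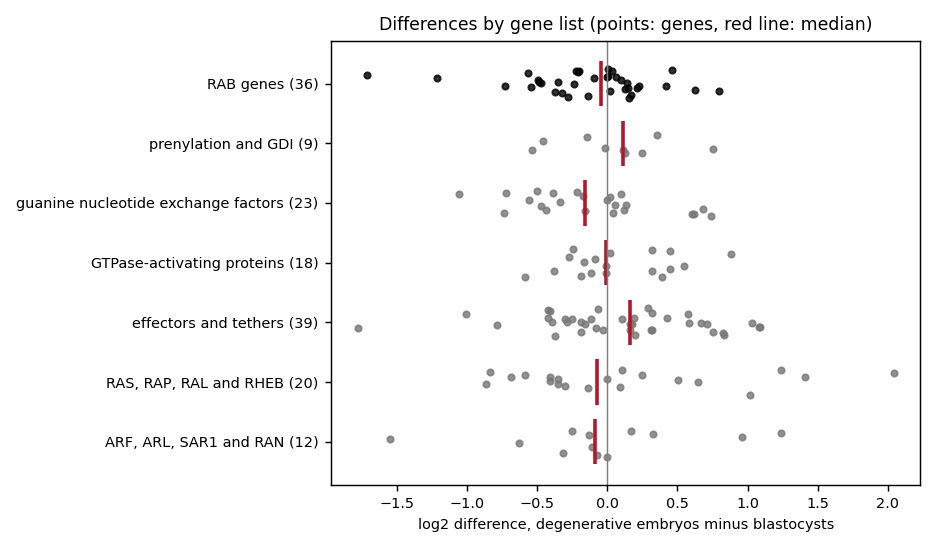
Difference between degenerative embryos and blastocysts on the log2 scale (horizontal axis) for the RAB genes, the lists of their regulators and effectors and other small GTPases (vertical axis, number of genes measured in parentheses). Each point is a gene, moved up or down at random to be seen, and red lines are medians. The median of the RAB genes lies at -0.05 and those of the other lists lie between -0.16 and 0.16.

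Markers of the cell types of the embryo also differed between the pools. Of 16 listed trophectoderm markers 11 were measured, 9 of them lower and 2 higher, with a median of -1.01, and the log2 of their summed level was 16.42 to 16.86 in blastocyst pools and 16.03 to 16.29 in degenerative pools. For the 3 measured markers of the inner cell mass and epiblast, POU5F1, SOX2 and KLF4, all higher, it was 13.93 to 14.06 and 14.18 to 14.98. Hypoblast markers (7 of 10 measured) gave 15.94 to 16.08 and 15.83 to 16.21, and markers of cumulus and granulosa cells (11 of 12) gave 12.19 to 12.66 and 12.03 to 12.77. A summed level follows its brightest genes and can hide opposite differences. Of the 11 cumulus and granulosa markers, 5 were lower, such as HSD3B1 at -2.16, and 6 higher, such as INHBA at 2.51 and PTX3 at 3.02. None of them had an unadjusted limma p under 0.05. Oocyte and maternal transcripts (7 of 14) gave 7.15 to 7.87 and 7.99 to 8.71, but 6 of the 7 had no group mean of at least 5, so that OOEP was the only one above that level, and markers of spermatozoa (3 of 9) gave 5.20 to 7.54 and 5.25 to 6.09. The summed trophectoderm markers were lower in all 3 degenerative pools than in any blastocyst pool. So were RAB25, RAB8B, RAB6A and RAB1A in their probe sets of the highest mean. The same holds for any probe set that was lower without overlap, as 8.93% of all probe sets were. Sharing these pools therefore says nothing about a link, and the part of these markers in the RAB differences was not tested. In pooled whole embryos, fewer cells of a type and less RNA per cell cannot be told apart.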

How the data were processed

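Each of the 6 pools was hybridised to its own array. The authors deposited 1 log2 expression value for each probe set and array, computed with GCRMA (2.14.1, according to the submitters' processing notes). That method estimates background from the sequences of the probes, equalises the distributions of the arrays and combines the probes into 1 value. From 27.4% to 28.6% of an array's probe sets lay within 0.01 of the lowest value, and array medians were 6.35 to 6.48. Arrays have no read depth, and the number of arrays limits the precision.

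Controls and unvarying probe sets were dropped, as the methods describe, though the paper's totals before and after this filter differ slightly from those here. Of 24036 probe sets, these were 20 controls and 5079 that did not vary at all. For the other 18937, limma (version 3.58.1, R 4.3.3, functions lmFit and eBayes) gave p-values with Benjamini-Hochberg adjustment over all of them, called at an adjusted p of at most 0.15. SAM was coded anew after its description, with all 20 ways to relabel the pools. The constant that SAM adds to each standard error was 1.03e-08, which hardly holds back probe sets of tiny spread. Both scripts were tested on simulated data. Symbols came from the platform's annotation, and all 39 member genes were matched in ARS-UCD2.0.

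The members and the lists were chosen with earlier results of these data known, and the lists were written from general knowledge. The result of 1 comparison list is not reported here. Named were, for each place of action, up to 4 genes with the smallest limma p, every member called by SAM or with an unadjusted p under 0.05, genes whose probe sets differ in sign, and up to 3 genes of each other list. Genes named beyond these, such as GDI2, were picked with their values in view.

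The labels do not say that the letters A, B and C mark a shared day or batch. Deviations of same-lettered pools from their group means, correlated across all tested probe sets, gave r = 0.373, 0.180 and 0.275, so that the letters were treated as pairs in an alternative fit with the letter as a block. Other alternatives were centring of arrays, filters on dim probe sets, an intensity trend with a robust prior, other choices of probe set, another count of false calls in SAM, and leaving out each pool or both A pools.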

Additional observations from a re-analysis of the deposited data

How the results depend on the processing

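No RAB probe set was called by limma at an adjusted p of at most 0.15 under any of the 13 alternatives, where 3 to 7 had an unadjusted p under 0.05. With the pool letter as a replicate block this number was 5 (4 lower and 1 higher), and RAB8B and RAB25 both had an adjusted p of 0.491. The 3 lower at an unadjusted limma p under 0.05 numbered 3 to 5 when single pools were left out and 6 without both A pools, and the 1 higher numbered 1 to 2. The 3 called by SAM at 25% numbered 0 to 6 when single pools were left out and 5 with the median number of false calls, which gave 3 at 15% in place of 0. The median difference of the RAB genes, -0.048, was -0.203 with only probe sets of a group mean of at least 5, -0.203 with values under 4 set to 4, and -0.239 to 0.019 when single pools were left out, and the cause of these shifts was not tested. For 15 of the 34 RAB probe sets with a group mean of at least 5 the sign turned when 1 pool was left out, 10 of them without degenerative pool A. Over such fits RAB18 ranged from -0.282 to 0.231, RAB30 from -0.451 to 0.040, RAB22A from -0.484 to 0.063, RAB31 from -0.246 to 0.413, RAB4B from -0.679 to 0.031, RAB5B from -0.109 to 0.142, RAB5C from -1.033 to 0.301, RAB27A from -0.019 to 0.254, RAB8A from -0.407 to 0.336, the second probe set of RAB8B from -0.693 to 0.102, RAB12 from -0.020 to 0.298, RAB34 from -0.094 to 0.330, RAB7B from -0.007 to 0.779, RAB11B from -0.694 to 0.436 and RAB15 from -0.408 to 0.063. So did 2 dim ones named by the rule, the second of RAB35 from -0.007 to 0.044 and RAB26 from -0.000 to 0.098. Without both A pools RAB18 was at -0.200, RAB5B at -0.224, RAB27A at -0.055 and RAB8A at 0.026, with turned signs. The others that turned without degenerative pool A kept their sign there. These were RAB11B at -0.054, RAB22A at -0.080, RAB30 at -0.134, RAB4B at -0.106, RAB5C at -0.580 and RAB7B at 0.091. RAB6A had an unadjusted limma p of 0.0678 with only probe sets of a group mean of at least 5, and of under 0.05 in the other 12 settings. The median difference of all probe sets before centring the arrays minus that after centring was -0.03, so centring raised it. Counts over all probe sets moved further. The 4 calls of limma numbered 0 with the replicate block and without both A pools, 1 with centred arrays, with the filter on dim probe sets or with an intensity trend, and 0 to 33 when single pools were left out. The 67 calls of SAM at 15% numbered 12 with centred arrays, 807 with the median number of false calls and 0 to 1 without single pools, and the 883 at 25% numbered 506, 1916 and 0 to 1841.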
